A study of Mus musculus with 18 samples.

Results

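The 10 genes described here encode Hox proteins, the homeodomain transcription factors that pattern the body axis and the limb. They are *Hoxd4* and the 9 other genes with the highest mRNA level among the 16 Hox genes that the study's own gene sheets list with a symbol and a UCSC identifier for the mesoderm or for the neural tube (NT) and forelimb bud (FL). Level here was the mean of the 6 NT and FL RNA-Seq libraries in normalized reads, and the limit fell between *Hoxd10* at 1093 and *Hoxa3* at 1085. The other 6, *Hoxa2*, *Hoxa3*, *Hoxa6*, *Hoxb4*, *Hoxc6* and *Hoxd8*, had means between 400.1 and 1085. The members were thus chosen by measured values, their mRNA level in NT and FL and, since the sheets were used in a shortened form that puts genes with a called TE first, their translation. *Hoxb2*, *Hoxb3*, *Hoxd11* and *Hoxd13* were listed for the mesoderm alone, *Hoxa5*, *Hoxa9*, *Hoxc4*, *Hoxd4* and *Hoxd10* for NT and FL alone, and *Hoxd3* for both. No p is printed for a gene in a contrast that listed it, where its call enters only a count from which nothing is read. Since level in NT and FL chose all 10, differences in mRNA and RPFs between these tissues are likewise described without a test. TE within NT or FL has this same mRNA in its denominator, so a p printed for it is not independent of the choice.

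Messenger RNA was measured by RNA-Seq and ribosome-protected fragments (RPFs) by Ribo-Seq in 3 kinds of material from E11.5 mouse embryos, with 3 replicates of each library type and 18 libraries in all. Mesoderm was sorted by flow cytometry as GFP+ cells from R26-mTmGflox/+; Tg(T-cre)1LWD/J/+ embryos, in which Cre under the T (Brachyury) promoter switches the reporter to membrane GFP in descendants of the primitive streak, so the sample pools many mesodermal cell types. NT and FL were microdissected from the same FVB embryos, used as wild type, and the NT piece ran from the level of the hind limb up to the rhombomeres of the hindbrain. Pregnant females of both crosses were 3 to 8 months old. Embryos of every group were handled in cycloheximide, which arrests ribosomes on the mRNA. Translational efficiency (TE) is the log2 ratio of RPFs to mRNA on the coding sequence (CDS) of a gene, centred on the median gene of the tissue, so that 0 is the median gene and -1 is 2-fold below it.

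Mammalian Hox genes lie in 4 clusters, HoxA to HoxD, and each gene belongs to a paralogue group, numbered from the 3′ end of its cluster, whose members descend from a common ancestor gene. Genes near the 3′ end are switched on early and reach far forward into the hindbrain, those near the 5′ end are switched on late and posteriorly, and the 5′ HoxD genes are used a second time in the distal limb bud. Their products bind DNA through the homeodomain, often together with cofactors of the Pbx and Meis families.

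The sequences shown are those at the start codons of *Hoxd4*, *Hoxc4* and *Hoxb4*, since the results on TE turn on how these genes differ. They are the genes of paralogue group 4 among the 16 matched Hox genes. *Hoxa4*, also of this group, was not matched and is not shown. The bases around the start codon come from the GRCm38 (mm10) genome with the GENCODE M21 annotation. They lie on the plus strand at chr2:74727267-74727282 for *Hoxd4*, at chr15:103034711-103034726 for *Hoxc4* and at chr11:96318758-96318773 for *Hoxb4*, at the junction of the 5′ untranslated region and the first coding exon. Capitals mark the run of 10 bases, ending in the start codon, that all 3 genes share:
Hoxd4: cttctGAAATTAATGg
Hoxc4: ctccaGAAATTAATGa
Hoxb4: tcccaGAAATTAATGg
The run GAAATTAATG, placed so that it ends in the annotated start codon, was found on the coding strand in 3 of 18482 mouse genes with enough annotated leader (0.0162%), and the 3 genes were these. The run was defined from these 3 genes, so their own hits were fixed in advance. The search shows only that no other of the genes searched had it. Among the 10 members, 6 had a purine 3 bases before the start codon and 2 had G right after it, and only *Hoxa9* had both. An ATG upstream of the start codon was present in the annotated 5′ leader of 8 of the 10 members, compared with 46.4% of 20084 genes. The median leader was 208.5 nt in the members and 139 nt over those genes, and the part of leader length was not tested. *Hoxd4* had 18 in a leader of 1234 nt and *Hoxa9* had 14 in 1266 nt, whereas the other principal isoform of *Hoxd4* had 6 in 205 nt, and which leader the embryo used was not measured here. *Hoxb2* and *Hoxd13* had none, and the annotated *Hoxd13* transcript starts at the start codon itself.

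All 10 members have 2 coding exons. Words of 29 bases, about the length of a footprint, that also occur in the coding transcript of another gene made up at most 2.97% of the counted CDS of any member (*Hoxd3*) and none of that of *Hoxc4*, so few reads of a member were open to loss or exchange between paralogues. The *Hoxd4* gene lies inside the annotated span of *Hoxd3* (chr2:74711927-74748442), on the same strand, and *Hoxa5* lies inside the span of *Hoxa3*, so reads of unspliced *Hoxd3* or *Hoxa3* RNA could be counted there.

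The members were deeply covered in most libraries. Recovered reads per library over all genes were 38054003 to 50136443 in mesoderm RNA-Seq, 11000015 to 16802829 in mesoderm Ribo-Seq, 24555103 to 33061460 in NT and FL RNA-Seq and 12967893 to 31993255 in NT and FL Ribo-Seq. Replicate 3 stood apart in Ribo-Seq, with Pearson's r of 0.886 and 0.896 with the other FL replicates, which had 0.976 with each other, and of 0.933 and 0.934 in NT, against 0.989. The labels were checked against marker lists, of which few genes carry a symbol. *Dcx* and *Nes* of the neural tube list (2 of 12) changed in mRNA from NT to FL by -3.99 and -1.97 on the log2 scale (adjusted p = 8.2e-07 and 8.9e-05, limma), and *Msx1* of the limb bud list (1 of 10) by 2.22 (adjusted p = 6.1e-04). The mesoderm held mRNA of *Tcf15* and *Myf5* of the somite and muscle list (2 of 9), with means of 702 and 184 normalized reads. It also held mRNA of *Dcx* and *Nes* of the neural tube list, with means of 306 and 7505.5 normalized reads. Other cell types were present too, with mean *Hba-x* mRNA of the blood list (2 of 7) at 15214 normalized reads in NT and 17298 in FL and from 2251 to 12367 over the mesoderm replicates. *Erbb3* of the neural crest and glia list (2 of 4) was higher in FL by 2.03 (adjusted p = 9.4e-04), *Epcam* of the epithelium list (1 of 5) differed by 1.68 (adjusted p = 0.068), and the endothelium list (3 of 5) had a median difference of -0.16. The part of these cells in the Hox values was not tested. In whole tissue, fewer cells that express a gene and less RNA per cell cannot be told apart.

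The 5′ HoxD genes had the most mRNA of the members in the forelimb bud. *Hoxd13*, which is needed for the digits, had 9377, 9599.8 and 6659 normalized RNA-Seq reads in the 3 FL libraries and 54.6, 152 and 192 in the 3 NT libraries. Every FL library was far above every NT library, and the change of 6.16 ± 0.41 (log2, SE) put it at rank 11230 of 11231 genes counted from the lowest. Its RPFs followed, with 5896, 6729 and 3724 in FL and 51.3, 96.0 and 84.1 in NT, the latter resting on 71, 118 and 58 reads. The RPF change of 6.13 ± 0.41 was close to the mRNA change, and TE in FL minus TE in NT was -0.03 ± 0.59. *Hoxd11*, a gene of the forearm, had 3612, 3573 and 3215 normalized RNA-Seq reads in FL and 273, 206 and 239 in NT. Its RPFs were 1442, 1694 and 1484 in FL and 88.9, 142 and 283 in NT, again without overlap. The log2 changes were 3.86 ± 0.32 for mRNA and 3.32 ± 0.32 for RPFs, 14.5-fold and 9.98-fold higher in FL.

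The 3′ HoxB genes went the other way. *Hoxb2*, which patterns the hindbrain and the facial motor nucleus, had 4969, 3605 and 4125 normalized RNA-Seq reads in NT and 201, 200.4 and 265 in FL. RPFs of *Hoxb2* numbered 2046, 2227 and 2869 in NT, compared with 96.2, 292 and 208 in FL, so each library type separated the tissues fully. Its mRNA was 19.0-fold lower in FL (-4.25 ± 0.33, log2, SE) and its RPFs 13.0-fold lower (-3.70 ± 0.33). *Hoxb3*, its neighbour in the cluster and also a hindbrain gene, had 4786, 4083 and 4651 normalized RNA-Seq reads in NT and 182, 181 and 203 in FL. Ribo-Seq counted 1738, 1778 and 2228 RPFs in NT but 99.4, 42.6 and 59.7 in FL, where 62, 20 and 40 reads were counted. From NT to FL, *Hoxb3* was 23.7-fold lower in mRNA (-4.57 ± 0.27) and 29.6-fold lower in RPFs (-4.89 ± 0.27). Over the 10 members, 6 were called lower and 3 higher in FL for mRNA (limma, adjusted p under 0.05 and at least 2-fold), while 9.49% of all genes were lower and 7.82% higher. For RPFs 7 were called lower and 3 higher, beside 17.8% and 14.9% of all genes. The members were kept by their mean mRNA in these same tissues, which a gene high in either one can pass, so nothing is read from these counts.

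TE of these 4 genes between the tissues differed by less than their changes in mRNA. FL minus NT was 0.54 ± 0.47 for *Hoxb2*, -0.32 ± 0.38 for *Hoxb3*, -0.54 ± 0.46 for *Hoxd11* and, as given above, -0.03 ± 0.59 for *Hoxd13*. No test is attached, because a gene with a called TE difference between these tissues would have been listed for them too. TE within a tissue has in its denominator the mRNA whose level chose the members. Its tests are thus not independent of the choice, and nothing is read from passing or failing them. Within a tissue, *Hoxb3* lay below the median gene in NT (-1.27 ± 0.27, adjusted p = 0.0062) and in FL (-1.56 ± 0.27, adjusted p = 6.0e-04), and *Hoxd11* in FL (-1.18 ± 0.32, adjusted p = 0.0082), all under 3-fold. TE of *Hoxb2* in NT (-0.86 ± 0.33, adjusted p = 0.081) and FL (-0.29 ± 0.33, adjusted p = 0.47), of *Hoxd11* in NT (-0.66 ± 0.32, adjusted p = 0.16) and of *Hoxd13* in NT (-0.67 ± 0.41, adjusted p = 0.26) and FL (-0.68 ± 0.41, adjusted p = 0.17) did not pass in this fit. TE of *Hoxd13* in FL did pass with the replicate block by sample, which pairs the library types made from the same cells (adjusted p = 0.045, limma), and without NT replicate 1 (0.049). TE of *Hoxb2* in NT passed without FL replicate 1 (adjusted p = 0.033, limma) and in DESeq2 (0.037), and that of *Hoxd11* in NT passed without NT replicate 3 (-1.10, adjusted p = 0.033, limma) but was -0.19 without NT replicate 1. For *Hoxb3* in NT the adjusted p was 0.064 without NT replicate 1 and 0.052 without NT replicate 2, and for *Hoxd11* in FL it was 0.073 without FL replicate 1 and 0.053 without FL replicate 2 (limma). Without FL replicate 1, log2 TE of *Hoxb3* in FL was -1.92, which is past 3-fold.

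**Figure D1:**
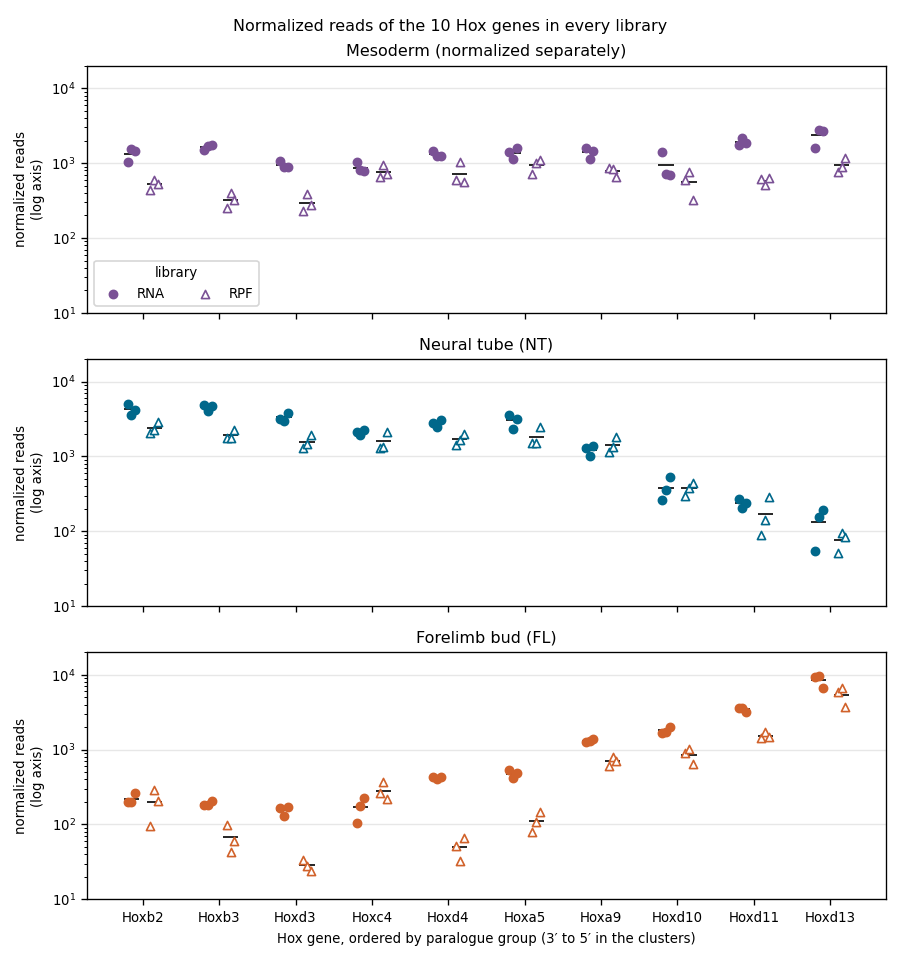
Normalized reads (log axis) of the 10 Hox genes in each library, in 3 panels for mesoderm, NT and FL. Filled circles are the 3 RNA-Seq replicates, open triangles the 3 Ribo-Seq replicates and short lines their means. From left to right the genes go from paralogue group 2 to 13, and the NT values decline from group 9 onward while the FL values climb, with Hoxd13 mRNA at a mean of 8545 in FL and 133 in NT. The mesoderm panel comes from a table normalized separately and is flatter.

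The remaining 6 members were listed for their translation in NT and FL, so their differences between these tissues are described without a test. *Hoxd3*, which shapes the first cervical vertebrae, had 3177, 2953 and 3799.9 normalized RNA-Seq reads in NT and 164, 130.1 and 172 in FL. Ribo-Seq gave 1301, 1443 and 1935 RPFs in NT against 33.7, 27.7 and 23.9 in FL, the latter from 21, 13 and 16 reads, the fewest of any member. The log2 change was -4.41 ± 0.24 in mRNA and -5.72 ± 0.24 in RPFs, the widest RPF difference downward among the members. *Hoxa5*, a gene of the neck and upper thorax and of the lung, had 3551, 2298 and 3206 normalized RNA-Seq reads in NT and 529.5, 412 and 487 in FL. Its RPFs went from 1487, 1514 and 2499 in NT to 80.2, 107 and 145 in FL, a log2 change of -4.04 ± 0.28 compared with -2.65 ± 0.28 in mRNA. In both genes the footprints thinned out more than the mRNA did.

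*Hoxd10*, expressed in lumbar motor neurons and in the limb bud, behaved as a 5′ gene, with 1670.3, 1709 and 2033 normalized RNA-Seq reads in FL and 259.9, 361 and 526 in NT. Its RPFs were 888, 1008 and 639 in FL and 297, 375 and 446 in NT. Its mRNA was higher in FL by 2.29 ± 0.28 and its RPFs by 1.17 ± 0.28, less than the mRNA. *Hoxa9*, a gene of the thoracic level and the limb, was the only member whose mRNA ranges overlapped between the tissues, 1264, 1308 and 1372 normalized reads in FL and 1309, 1009 and 1364 in NT, with a log2 change of 0.11 ± 0.22. Its RPFs did not overlap, with 598, 804 and 703 in FL and 1132, 1354 and 1832 in NT, a log2 change of -1.02 ± 0.22.

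**Figure D2:**
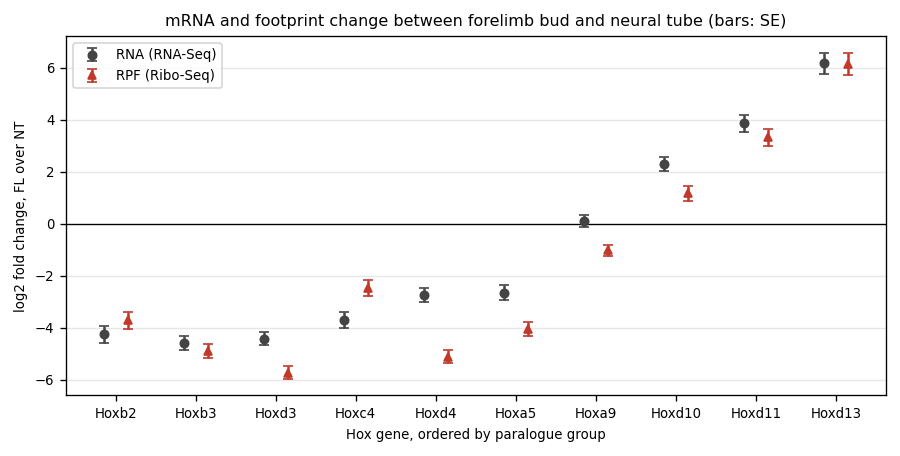
Log2 fold change of FL over NT for the 10 Hox genes, ordered by paralogue group, with SE bars. Circles are mRNA (RNA-Seq) and triangles RPFs (Ribo-Seq), and values below 0 are lower in FL. The members of groups 2 to 5 lie between -4.57 and -2.65 in mRNA, Hoxa9 at 0.11, and Hoxd10, Hoxd11 and Hoxd13 at 2.29, 3.86 and 6.16.

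Among the matched genes of HoxD the change in mRNA followed gene order, and the other HoxD genes were not measured here. The log2 change from NT to FL was -4.41 for *Hoxd3*, -2.73 for *Hoxd4*, -0.04 for *Hoxd8* (matched but not among the 10), 2.29 for *Hoxd10*, 3.86 for *Hoxd11* and 6.16 for *Hoxd13*. The matched genes of HoxA and HoxB were not in strict order, with -3.67, -2.09, -2.65, -2.44 and 0.11 for *Hoxa2*, *Hoxa3*, *Hoxa5*, *Hoxa6* and *Hoxa9* and -4.25, -4.57 and -4.33 for *Hoxb2*, *Hoxb3* and *Hoxb4*. Levels per length, in normalized reads per kb of counted CDS, rose in FL from 125 ± 17.9 (SD, n = 3) for *Hoxd3* mRNA to 8901 ± 1706 for *Hoxd13* mRNA. In NT the mRNA level per kb was 2665 ± 353 for *Hoxd3* and 4058 ± 440.5 for *Hoxd4*, and it was 397 ± 139.6, 252 ± 35.5 and 139 ± 73.6 for *Hoxd10*, *Hoxd11* and *Hoxd13*. In NT, and likewise in FL, the mean footprint levels per kb of these 5 HoxD genes came in the same order as their mean mRNA levels.

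**Figure D3:**
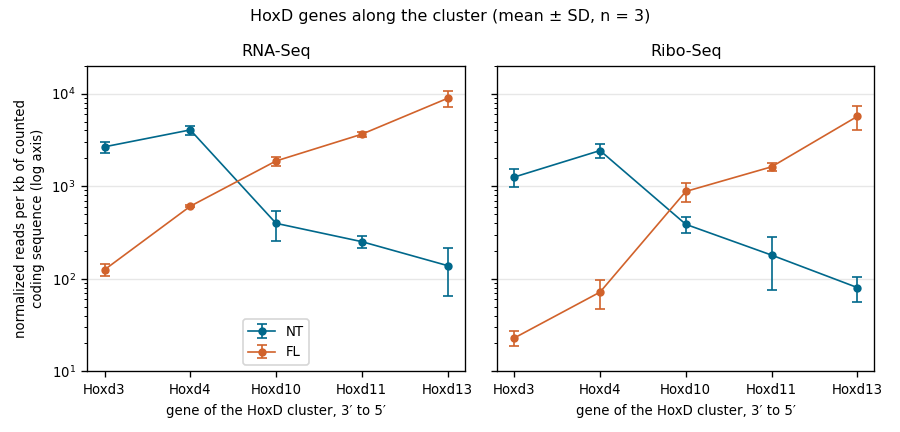
Normalized reads per kb of counted CDS (log axis) for the 5 HoxD members, from the 3′ to the 5′ end of the cluster, in NT and FL, as mean ± SD of 3 replicates, with RNA-Seq on the left and Ribo-Seq on the right. The NT and FL lines cross between Hoxd4 and Hoxd10, and in Ribo-Seq the FL line starts lower, at 22.9 for Hoxd3 and 71.7 for Hoxd4.

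Over all 10 members, mRNA per kb in NT was highest and not separable among *Hoxb2* (4212 ± 685), *Hoxd4* (4058 ± 440.5), *Hoxa5* (4008 ± 859.6) and *Hoxb3*, whose replicate ranges overlapped from each to the next. *Hoxc4* (2857 ± 219) and *Hoxd3* followed and overlapped each other, then *Hoxa9* (1624 ± 253) stood alone above the 5′ HoxD genes. In FL the mRNA order was *Hoxd13*, *Hoxd11*, *Hoxd10*, *Hoxa9*, *Hoxa5*, *Hoxd4*, *Hoxc4*, *Hoxb2*, *Hoxb3* and *Hoxd3*, and only the pairs *Hoxd10* with *Hoxa9*, *Hoxa5* with *Hoxd4*, and *Hoxc4* with *Hoxb2* overlapped among neighbours. In footprints per kb *Hoxc4* came at rank 5 in FL (384 ± 104) and *Hoxd4* at rank 8 (71.7 ± 24.4).

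*Hoxd4*, a hindbrain and cervical gene, and *Hoxc4*, its paralogue, both had less mRNA in FL than in NT but differed in footprints. *Hoxd4* had 2829, 2498 and 3108 normalized RNA-Seq reads in NT and 428, 407 and 428 in FL, a log2 change of -2.73 ± 0.26. It had 1407, 1674 and 1966 RPFs in NT against 51.3, 32.0 and 65.7 in FL, the latter from only 32, 15 and 44 reads, although 555, 510 and 493 RNA-Seq reads were counted in the same tissue. Its RPF change was -5.10 ± 0.26. *Hoxc4* had 2136, 1924 and 2239.8 normalized RNA-Seq reads in NT and 106, 176 and 227 in FL, a log2 change of -3.69 ± 0.31. It kept 1299.7, 1321 and 2139.6 RPFs in NT against 261, 367 and 218 in FL, where 163, 172 and 146 reads were counted. In FL the less abundant mRNA of this pair, *Hoxc4*, therefore carried the more footprints in every replicate.

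The log2 TE of *Hoxd4* was -1.04, -0.61 and -0.69 in the 3 NT replicates and -3.04, -3.63 and -2.69 in the 3 FL replicates. That of *Hoxc4* was -0.75, -0.57 and -0.10 in NT and 1.30, 1.05 and -0.06 in FL. *Hoxd4* was thus lower in FL in every replicate, and *Hoxc4* was higher, with FL replicate 3, whose Ribo-Seq library stood apart, nearest to the NT values. FL minus NT was -2.37 ± 0.36 for *Hoxd4* and 1.21 ± 0.43 for *Hoxc4*, and without FL replicate 3 it was -2.58 and 1.62. Without NT replicate 3, the other Ribo-Seq library that stood apart, it was -2.32 and 1.40. Taken within each replicate, *Hoxd4* minus *Hoxc4* was -0.29, -0.03 and -0.59 in NT and -4.33, -4.69 and -2.63 in FL. As both genes were listed for NT and FL, these differences are a description. Of the 16 matched Hox genes, *Hoxc6*, which was not kept, rose most in TE. Its FL minus NT was 1.72 ± 0.38, also a description since it was listed for NT and FL. *Hoxb4*, which shares the run at the start codon and was named after its values were seen, resembled *Hoxc4*, with log2 TE of -0.31, -0.17 and 0.04 in NT and 0.09, 1.83 and 0.85 in FL and a mean of 67.6 normalized RNA-Seq reads in FL. The 3 genes that share the bases GAAATTAATG at the start codon differed in TE in FL, where *Hoxd4* minus *Hoxb4* was -3.13, -5.47 and -3.54. The part of these bases in TE was not tested.

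Among the 10 members, TE differed between FL and NT past the call rule (adjusted p under 0.2 and at least 2-fold) for 1, *Hoxd4*, and 0.276% of all 11231 genes were called lower and 0.125% higher in FL. As the rule that chose 6 of the members used this contrast, nothing is read from that count. Over all genes 31 were called lower and 14 higher by limma, 21 and 18 by edgeR, and 286 and 570 by DESeq2, which called 6 of the members, while with the replicate block by sample limma called 3 lower and 1 higher, with *Hoxd4* still the 1 member called. TE of 8 of the 10 was lower in FL, with a median of -0.83 compared with 0.01 over all genes and values from -2.37 for *Hoxd4* to 1.21 for *Hoxc4*. Because 6 of the 10 were listed through this contrast, nothing is read from this count or median either. *Hoxd4* was at rank 60 from the lowest. The count of called members was 0 without any of NT replicate 1, NT replicate 2, FL replicate 1 or FL replicate 2, when at most 2 of all genes were called. It was 6 without NT replicate 3, when 1235 of all genes were called lower and 1000 higher, and 5 without FL replicate 3, when 2167 were lower and 1805 higher. The value for *Hoxd4* itself stayed between -2.58 and -2.11.

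**Figure D4:**
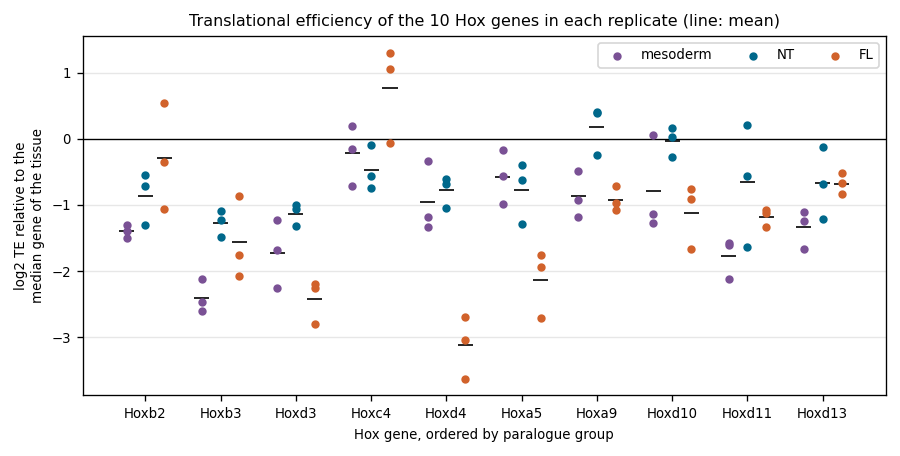
Log2 TE relative to the median gene of each tissue for the 10 Hox genes, with a point for each of 3 replicates and a short line for their mean, for mesoderm, NT and FL from left to right within a gene. The 3 FL points of Hoxd4, at -3.04, -3.63 and -2.69, are among the lowest, reached otherwise only by single FL points of Hoxd3 and Hoxa5, and all 3 FL points of Hoxc4 lie above its NT points.

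TE within NT and FL was described in the same way. In NT, 9 of 10 members lay below the median gene, with a median of -0.72, but 0 of 10 passed the call (limma, adjusted p under 0.05 and at least 3-fold) while 4.11% of genes were called lower and 0.436% higher. At an unadjusted p under 0.05 there were 5 of 10 by limma and by edgeR and DESeq2, and edgeR and DESeq2 likewise called 0. In FL, 9 of 10 lay below the median, with a median of -1.15, and 3 were called lower, *Hoxa5* (-2.13), *Hoxd3* (-2.42) and *Hoxd4* (-3.12), beside 13.4% of all genes, with 6.26% called higher. All 3 had been listed for NT and FL, and nothing is read from the counts or medians in either tissue, since the rule used these values. Log2 TE of *Hoxa5* was -1.29, -0.63 and -0.39 in the NT replicates and -2.71, -1.94 and -1.75 in the FL replicates, and that of *Hoxd3* had a mean of -1.13 ± 0.17 (SD, n = 3) and -2.42 ± 0.33.

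In the mesoderm, which comes from a separately normalized table, the 10 mRNAs spanned a narrower range than in NT or FL. Mean normalized RNA-Seq reads ranged from 874 ± 138 (SD, n = 3) for *Hoxc4* to 2365 ± 655 for *Hoxd13*. Per kb, each member in the order of mRNA level overlapped the next. Genes of groups 2 to 5 and of groups 9 to 13 were thus found together in the sorted cells.

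All 10 members had a log2 TE below the median gene in the mesoderm, with a median of -1.14 beside 0.00 for all 12064 genes. As *Hoxb2*, *Hoxb3*, *Hoxd3*, *Hoxd11* and *Hoxd13* were listed for the mesoderm through this TE, nothing is read from that count or median. For the 5 genes listed for NT and FL alone this table was not used to choose them, although a TE at least 3-fold low would have listed them for the mesoderm too. *Hoxd4* had 1451, 1254 and 1239 normalized RNA-Seq reads and 589.9, 1023 and 560.0 RPFs in replicates 1, 2 and 3, hence a log2 TE of -1.33, -0.33 and -1.18. The fitted value was -0.95 ± 0.21, a 1.93-fold reduction (adjusted p = 0.0031, limma). *Hoxa9* had 1606, 1154 and 1467 normalized RNA-Seq reads and 862, 844 and 657 RPFs, and its TE was -0.87 ± 0.19 (adjusted p = 0.0025). TE was -0.79 ± 0.25 for *Hoxd10* (adjusted p = 0.019), whose replicates were at -1.28, 0.06 and -1.14, and -0.58 ± 0.19 for *Hoxa5* (adjusted p = 0.028), with -0.99, -0.17 and -0.57. *Hoxc4* did not pass the test, at -0.22 ± 0.20 (adjusted p = 0.42), from 1033, 814 and 776 normalized RNA-Seq reads and 646, 952 and 714 RPFs. In all 5 genes replicate 2 was the highest. The test held for *Hoxd4* with each replicate left out in turn (adjusted p of at most 0.035, limma) and without the replicate block (0.032). It did not hold for *Hoxa9* without replicate 3 (adjusted p = 0.078), for *Hoxd10* without replicate 1 (0.068), without replicate 3 (0.13) or without the replicate block (0.16), nor for *Hoxa5* without replicate 1 (0.23), without replicate 3 (0.16) or without the replicate block (0.12), while *Hoxc4* passed without replicate 2 (-0.45, adjusted p = 0.029). *Hoxd4* minus *Hoxc4* in log2 TE was -0.62, -0.52 and -1.02 in the 3 mesoderm replicates.

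The 5 members listed for the mesoderm are given as a description. *Hoxb3* had the lowest TE, -2.60, -2.12 and -2.47 in the 3 replicates, from 1515, 1709 and 1724 normalized RNA-Seq reads and 255, 402 and 318 RPFs. *Hoxd11* had -1.57, -2.12 and -1.61 and *Hoxd3* -2.26, -1.23 and -1.68. These 3 passed the call rule for low TE (3 of 10, against 10.9% of all genes and 1.17% for high TE), a count from which nothing is read since the rule used it. Without replicate 1, *Hoxd3* was at -1.44, which is under 3-fold, and 2 members were called. *Hoxb2*, with -1.30, -1.40 and -1.50, and *Hoxd13*, with -1.11, -1.66 and -1.25, were below the median by 2.64-fold and 2.53-fold.

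TE of *Hoxb3*, the lowest member in mesoderm, and of *Hoxd4* is given side by side for the 3 tissues. *Hoxb3* had a mean log2 TE of -2.40 ± 0.25 (SD, n = 3) in mesoderm, -1.27 ± 0.20 in NT and -1.56 ± 0.62 in FL, and *Hoxd4* had -0.95 ± 0.54, -0.78 ± 0.23 and -3.12 ± 0.48. The mesoderm was not tested against the other tissues, because the tables were normalized separately. Nearest below the limit of the level rule, *Hoxa3* and *Hoxa6* had fitted log2 TE (± SE) of -1.95 ± 0.18 and -3.12 ± 0.24 in mesoderm and -2.33 ± 0.38 and -2.87 ± 0.39 in FL, with log2 changes of FL over NT mRNA (± SE) of -2.09 ± 0.38 and -2.44 ± 0.39. The 6 genes not kept ranged from -3.12 to 0.44 in mesoderm TE and from -2.87 to 1.18 in FL TE.

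The genes whose profile over the 12 NT and FL libraries was most like that of *Hoxd4*, among those with a symbol and 100 normalized reads or more on average, were *Mpp3* (Pearson's r = 0.991 on log2(normalized reads + 1)), *Shank1* (0.990), *Arhgap33* (0.990), *Hoxa6* (0.989) and *Hoxa5* (0.987). The 12 libraries share tissues and library types, and 3102 of the 10766 genes compared had a symbol. *Shank1*, which encodes a scaffold of the synapse, had a log2 change from NT to FL of -2.91 in mRNA and -4.98 in RPFs, compared with -2.73 and -5.10 for *Hoxd4*.

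Other genes of the pathway could be followed only where they carry a symbol, and since symbols are mostly those of genes the study called, the counts are not independent evidence. Of 9 cofactors that bind DNA together with Hox proteins, only *Meis3* had a symbol. Its mRNA was 3682 ± 594 (SD, n = 3) normalized reads in NT and 84.4 ± 19.2 in FL, a log2 change of -5.44 (adjusted p = 2.0e-08, limma), and its TE in mesoderm was -1.73. *Crabp1*, the retinoic acid binding protein and the only gene with a symbol of 15 upstream patterning genes, changed in mRNA from NT to FL by -2.31 (adjusted p = 1.1e-04), while its TE in FL was 2.18.

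Chromatin regulators keep Hox genes silent (Polycomb) or active (Trithorax). Of the 7 measured genes of 19 in the Polycomb and H3K27 list, 0 passed the mRNA test between FL and NT by limma, 0 by edgeR and 0 by DESeq2, and 0, 0 and 0 had an unadjusted p under 0.05. Of the 5 measured of 10 symbols in the Trithorax list, 0 passed the mRNA test between FL and NT by limma, 0 by edgeR and 0 by DESeq2, and 0, 0 and 0 had an unadjusted p under 0.05. Over all genes limma called 9.49% lower and 7.82% higher in FL mRNA. With so few genes in a list, a count of 0 is near that share, and nothing is read from it. *Kdm6b*, which removes the H3K27 methyl mark, had an mRNA change of -0.17 from NT to FL, *Phc1*, a Polycomb subunit, of -0.53, and the Trithorax methyltransferases *Kmt2d* and *Kmt2a* of 0.15 and -0.36. In TE, 6 of 8 Polycomb and H3K27 genes and 4 of 5 Trithorax genes were called low in mesoderm, with medians of -1.78 and -2.62, and 4 of 7 and 5 of 5 in FL, with medians of -1.85 and -2.59. Over all genes 10.9% were called low in mesoderm and 13.4% in FL, but listed genes carry a symbol mostly because the study called them, so nothing is read from these counts. TE in FL minus NT had a median of -1.40 and -1.83 in these lists, -0.83 in the 10 Hox genes and 0.01 over all genes. By limma 0 of 7 and 0 of 5 were called in this contrast, beside 0.276% of all genes lower and 0.125% higher. Genes of the lists and most of the Hox genes were named mostly through TE calls, so nothing is read from these medians or counts.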

How the data were processed

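RNA-Seq and Ribo-Seq libraries of mesoderm, NT and FL at E11.5 were analysed, 3 replicates each. For both tables the authors trimmed adapters (cutadapt), took out rRNA, tRNA and snRNA reads, mapped what remained to mm10 canonical UCSC known genes, and assigned uniquely mapped reads to CDS codons, leaving out 15 at the start and 5 at the end. Scaling was by DESeq size factors. Bowtie2 is named in the submitters' processing notes. The deposited signal values are these normalized reads, in 1 table for mesoderm (12064 genes) and 1 for NT and FL (11231 genes), normalized separately, so no test crossed the tables. In all 18 libraries 100.0% of values were whole multiples of 1 step (tolerance 0.006), which gave reads for edgeR 4.0.16 and DESeq2 1.42.0, run as alternatives.

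With R 4.3.3, limma 3.58.1 was fitted to log2(normalized reads + 1), a scale that understates changes of genes with few reads, with Benjamini-Hochberg adjustment over all genes of the table. The mesoderm model had the replicate number as a block, since the cells of a replicate were divided between library types (deviations from condition means correlated at 0.76, 0.60 and 0.63). The methods describe the same division for NT and FL, taken from the same embryos, but the model for these had no block. There the deviations of RNA-Seq with Ribo-Seq correlated at -0.32, 0.40 and 0.05 in NT and at 0.05, 0.12 and 0.10 in FL, and those of NT with FL at -0.35, -0.59 and -0.63 in Ribo-Seq. Blocks by sample and by number were alternatives. TE within a tissue was centred on its median gene (at most 0.035 before centring), and its p tests the value before centring. Calls needed an adjusted p under 0.05 and 3-fold (TE in a tissue), 0.2 and 2-fold (TE between tissues) or 0.05 and 2-fold (mRNA and RPFs). Python 3.11.15 with numpy 2.4.6 and pandas 2.3.3 did the rest. The models were also run on simulated counts that lacked the correlations between libraries given above, so nothing is read from that run.

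The members, gene lists and tests were chosen with earlier results of these data known. The named genes are the 10 members, the unkept Hox genes, the 5 genes nearest to *Hoxd4* and, from each list, 1 to 3 genes of highest mean mRNA. Columns with the authors' own comparisons in the study's supplementary sheets were not used. Symbols came from those sheets and cover 28.4% of mesoderm genes and 29.2% of NT and FL genes. Positions, CDS lengths and sequences came from GRCm38 and GENCODE M21 (APPRIS principal transcript with a CCDS), whose isoforms may differ from those counted. Which embryos or litters made up a replicate is not given in the sources used here, so p-values measure the spread between these samples.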

Additional observations from a re-analysis of the deposited data

How the results depend on the processing

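Each of the 10 members was refitted under every alternative, which gave 770 values. Of these, 748 stayed on the same side of the call, 7 lost a call and 15 gained one. No called value changed sign, while values near 0 did, such as *Hoxc4* mesoderm TE (0.03 without replicate 1). The count of members with a called TE difference between FL and NT, 1 in limma, was 6 in DESeq2 and ran from 0 to 6 when a replicate was left out, and the cause was not tested. The counts for the other comparisons stayed within 1.5 times, from 9 to 9 of 10 for mRNA, from 9 to 10 for RPFs, from 3 to 4 for FL TE, at 0 for NT TE and from 2 to 3 for mesoderm TE without a replicate. *Hoxa9* RPFs were -0.91 without FL replicate 1 and -0.83 without NT replicate 3, under 2-fold. Mesoderm TE of *Hoxd4* ran from -1.27 to -0.74 without a replicate. Without the replicate block in the mesoderm, 3 members were called and the value for *Hoxd4* was -0.95 (adjusted p = 0.032, limma). In NT and FL, with the replicate block by number or by sample, 1 member was called for TE, 9 for mRNA and 10 for RPFs. The block by sample put TE of *Hoxd13* in FL under an adjusted p of 0.05 (0.045, limma). Over all genes, called TE differences went from 31 lower and 14 higher to 5 and 1 with the block by number, 3 and 1 with the block by sample and 286 and 570 in DESeq2. Without a replicate, genes called high in TE went from 703 to between 381 and 1394 in FL, from 49 to between 30 and 76 in NT and from 141 to between 72 and 271 in mesoderm. Depth limits TE of *Hoxd4* and *Hoxd3* in FL, where a Ribo-Seq library held 13 to 44 reads of them.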
